A study of Mus musculus with 2 samples.

Results

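AP-1 is a family of transcription factors made of paired bZIP proteins, and its 8 subunits Fos, Fosb, Fosl1, Fosl2, Jun, Junb, Jund and Atf3 were followed here in primary osteoblasts of Slc39a13-KO and wild-type mice. The members were named by function, and every probe set annotated to 1 of these symbols and to no other gene was taken. This gave 12 probe sets for 8 of the 18193 genes that the array reads. Each probe set combines several short oligonucleotides that bind the same transcript.

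Slc39a13 (ZIP13) carries zinc across intracellular membranes, and the study asked what its loss does in bone-forming cells. The Slc39a13-KO mice carried a targeted allele in which a neomycin cassette took the place of several inner exons, made in R1 embryonic stem cells. The wild-type mice carried the intact gene. Both cultures came from the skull vault of newborn pups, digested in steps with collagenase and dispase and grown in serum, and the labels name no other treatment. Each genotype was read on 1 array, so n = 1 per group, no test between genotypes was possible and no p-value was computed. The labels do not state the strain, the sex, the number of pups or the time in culture. The probe set of Slc39a13 itself had a signal of 90.4 in the Slc39a13-KO array and 1309 in the wild-type array, 14.5-fold lower, though whether it lies inside the removed exons was not established.

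The subunits bind DNA as dimers held by a leucine zipper. Fos proteins need a Jun partner, whereas Jun proteins also pair with each other, and both kinds of dimer bind the site TGACTCA, called the TRE. Fos, Fosb, Jun, Junb and Atf3 are immediate early genes, switched on within minutes by serum or stress, whereas Fosl1 and Fosl2 follow later and Jund is made steadily. In mice, loss of Fos leaves bone without osteoclasts, and Fosl1, Fosl2 and Junb are needed by osteoblasts to form bone.

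The subunits differed between the arrays in both directions. In the Slc39a13-KO array Fos, Jun and Junb exceeded wild-type by at least 2-fold, and Fosl1 and Jund were at least 2-fold lower. Fosb, Fosl2 and Atf3 were not called at this threshold, which is the fold the study used. A call also required that all measured probe sets of the gene had the same sign. Thus 3 of 8 members (37.5%) were called higher, where 8.0% of all 12256 measured genes were, and 2 of 8 (25%) were called lower, where 5.93% of all genes were. The median log2 ratio over the 8 members was 0.61, against 0.11 over all measured genes.

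Signals are MAS5 units on a linear scale, and those below a floor of 85.3, the median of the pooled signals, were raised to it before log2 was taken. All 8 members had at least 1 probe set above the floor in at least 1 array. Of their 12 probe sets 9 were above it in both arrays, 1 in the Slc39a13-KO array only and 2 in neither. Because probe sets differ in how brightly they bind, a signal is compared only with that of the same probe set on the other array.

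**Figure D1:**
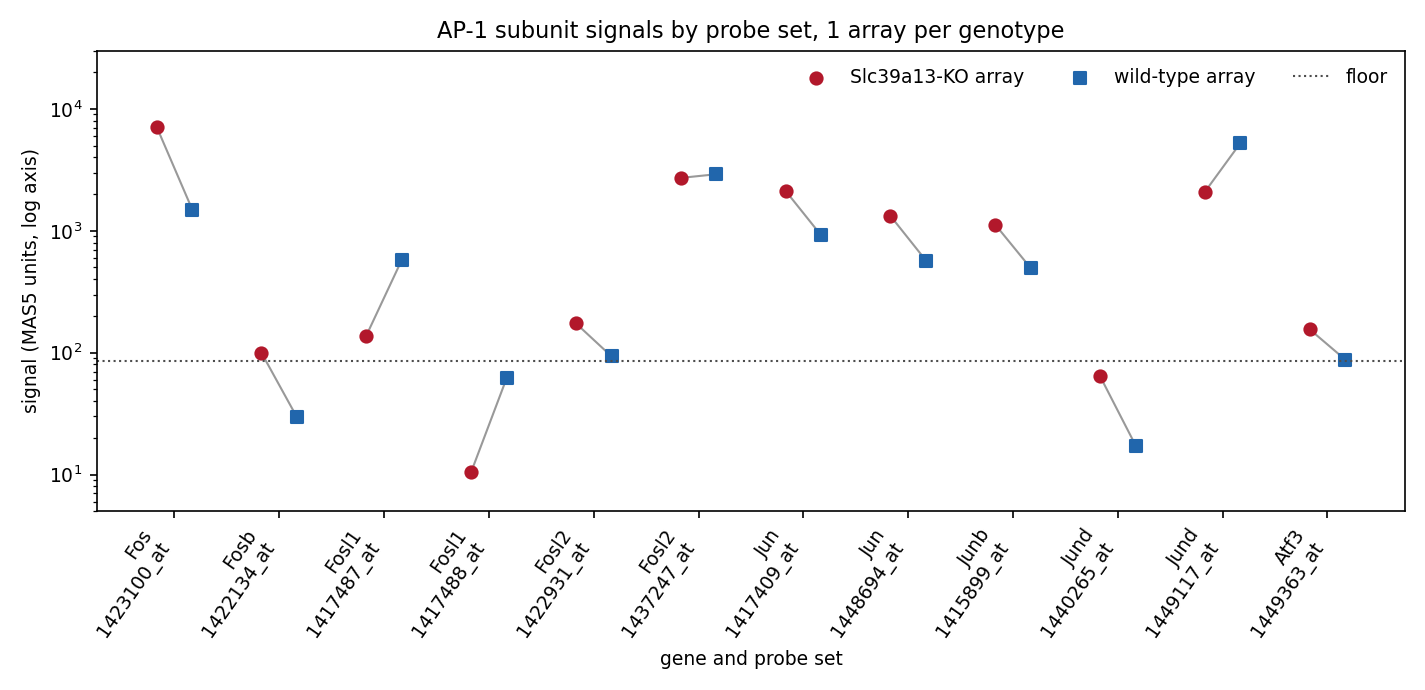
Signals of the 12 AP-1 probe sets (vertical, MAS5 units, log axis) in the Slc39a13-KO array (red circles) and the wild-type array (blue squares), with 1 array per genotype, a grey line joining the same probe set and a dotted line at the floor of 85.3. Fos, both Jun probe sets and Junb slope down to the right, and Fosl1 and the bright Jund probe set slope up.

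Fos, the partner that Jun proteins take up after serum, had the largest ratio of the family. Its single probe set (1423100_at) had a signal of 7139 in the Slc39a13-KO array and 1494 in the wild-type array, 4.78-fold higher. The log2 ratio of 2.26 was reached or exceeded by 1.42% of all measured genes. Both signals lay far above the floor, so the ratio did not depend on it.

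Jun, which can bind DNA with itself or with Fos, was read by 2 probe sets. The first (1417409_at) had signals of 2127 in the Slc39a13-KO array and 917 in the wild-type array. The second (1448694_at) had signals of 1326 in the Slc39a13-KO array and 569 in the wild-type array. Their log2 ratios were 1.21 and 1.22, so both put Jun 2.32-fold to 2.33-fold higher. For comparison, among the 5692 genes with at least 2 measured probe sets, these differed from each other with a median SD of 0.34 in log2 ratio. That SD is the only spread these data hold. It tells how far probe sets of 1 gene differ, and it holds no variation between cultures or repeat arrays.

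Junb, a Jun protein with weaker activation that can hold Jun in check, moved to a like extent. Its single probe set (1415899_at) had a signal of 1124 in the Slc39a13-KO array and 493 in the wild-type array, a log2 ratio of 1.19. Of all measured genes 5.57% had a ratio this high or higher, and 5.30% had one as high as that of Jun.

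Jund, the Jun protein found in resting cells, went the other way. The brighter of its 2 probe sets (1449117_at) had a signal of 2086 in the Slc39a13-KO array and 5256 in the wild-type array, 2.52-fold lower with a log2 ratio of -1.33. The other (1440265_at) was below the floor in both arrays, with raw signals of 64.2 in the Slc39a13-KO array and 17.3 in the wild-type array. These dim signals run opposite to the bright ones. When the floor was put at the 30th percentile or removed, the dim probe set entered the mean, the log2 ratio became -0.23 or 0.28 and the call was lost, so the call for Jund rests on 1 probe set. The dim probe set also entered when the arrays were scaled on added control RNAs.

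Fosl1 (Fra-1), a Fos protein without the strong activation domain of Fos, was the member furthest below wild-type. Its brighter probe set (1417487_at) had a signal of 138 in the Slc39a13-KO array and 580 in the wild-type array, 4.21-fold lower with a log2 ratio of -2.07. Of all measured genes 1.36% had a ratio this low or lower. The second probe set (1417488_at) was below the floor in both arrays, with raw signals of 10.4 in the Slc39a13-KO array and 62.1 in the wild-type array, the same direction. The Slc39a13-KO signal of the bright probe set stood near the floor, and with the floor at the 70th percentile the log2 ratio was -0.85 and Fosl1 was not called.

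Fosl2 (Fra-2), the closest relative of Fosl1, was read by 2 probe sets that differed from each other. The bright one (1437247_at) had signals of 2716 in the Slc39a13-KO array and 2912 in the wild-type array, a log2 ratio of -0.10. The dim one (1422931_at) had signals of 174 in the Slc39a13-KO array and 93.2 in the wild-type array, a log2 ratio of 0.90. The gene mean was 0.40 with an SD of 0.71 between the 2 probe sets, close to the 90th percentile of this SD over all genes (0.75). Mixed signs were common on these arrays, with 39.3% of the genes read by at least 2 probe sets showing them.

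Fosb, the remaining Fos protein, could hardly be measured. Its probe set (1422134_at) had a signal of 99.8 in the Slc39a13-KO array and a raw signal of 29.4 in the wild-type array, which is below the floor. The ratio was therefore at least 1.17-fold, and no call was made. With the floor at the 30th percentile or removed the log2 ratio was 1.52 or 1.76 and Fosb was called higher, values that rest on a signal where MAS5 is noisy.

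Atf3, a stress-induced bZIP protein that can repress as well as activate, was also dim. Its probe set (1449363_at) had a signal of 155 in the Slc39a13-KO array and 87.6 in the wild-type array, 1.77-fold higher, and was not called. The wild-type signal stood just above the floor.

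**Figure D2:**
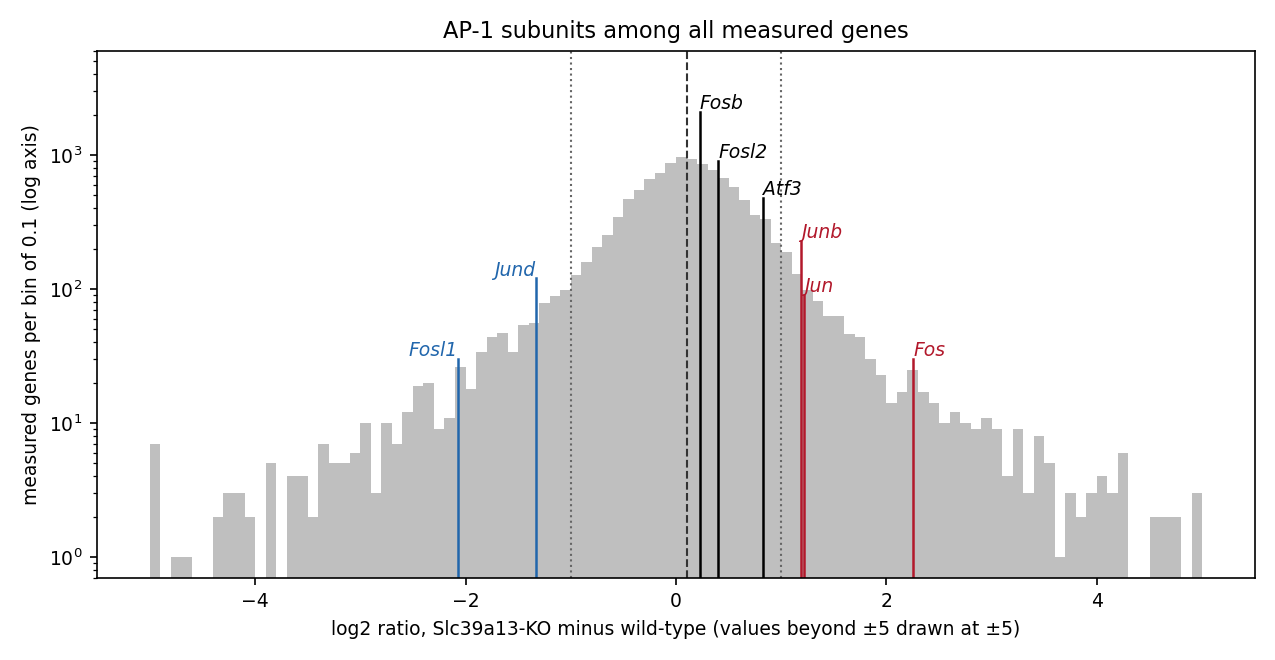
Log2 ratios of all 12256 measured genes (grey histogram, Slc39a13-KO minus wild-type, gene count on a log axis) with the 8 AP-1 subunits as vertical lines, red if called higher, blue if called lower and black if not called. Dotted lines mark 2-fold and the dashed line the median of all genes at 0.11; line heights carry no value.

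The promoters of the 3 subunits called higher are shown because these genes moved in the same direction on these arrays. The windows run from 250 bases before to 50 bases after the annotated start (RefSeq, GRCm38.p6), and 7 of the 8 members had one, all but Fosl1. Capitals mark the CRE half-site TGACG in Fos and Junb, the TRE-like element TGACATCA in Jun and the letters TATAAA, the motif of the TATA box, in Fos and Junb. These lie at chr12:85473640-85473939 on the + strand (Fos), chr4:95052173-95052472 on the - strand (Jun) and chr8:84978699-84978998 on the - strand (Junb).
Fos: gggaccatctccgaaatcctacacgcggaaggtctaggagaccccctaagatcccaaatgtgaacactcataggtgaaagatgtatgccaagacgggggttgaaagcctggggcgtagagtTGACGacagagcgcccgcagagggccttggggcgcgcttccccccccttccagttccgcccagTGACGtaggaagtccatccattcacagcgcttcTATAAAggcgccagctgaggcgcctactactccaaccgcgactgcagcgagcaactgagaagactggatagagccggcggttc
Jun: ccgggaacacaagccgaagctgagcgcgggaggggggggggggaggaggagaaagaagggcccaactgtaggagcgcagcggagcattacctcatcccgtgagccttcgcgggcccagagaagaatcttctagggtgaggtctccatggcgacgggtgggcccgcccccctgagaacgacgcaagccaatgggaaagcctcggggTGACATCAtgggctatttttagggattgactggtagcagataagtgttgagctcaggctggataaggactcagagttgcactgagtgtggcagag
Junb: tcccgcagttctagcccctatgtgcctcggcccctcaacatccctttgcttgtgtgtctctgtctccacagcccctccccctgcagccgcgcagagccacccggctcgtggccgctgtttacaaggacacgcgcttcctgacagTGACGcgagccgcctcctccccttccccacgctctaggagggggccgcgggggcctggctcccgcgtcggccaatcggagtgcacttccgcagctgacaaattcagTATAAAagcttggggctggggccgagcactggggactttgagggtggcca

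In Fos the half-sites began 129 and 66 bases before the start, and TATAAA began 33 bases before it. In Jun, TGACATCA began 45 bases before the start, and in Junb TGACG began 106 bases before it and TATAAA at the first transcribed base of the annotation. All motifs were searched on both strands except TATAAA, which was searched on the gene strand only, and TGACG also lies within TGACGTCA. TGACG was present in 20.8% of all 32851 windows and in 4 of the 7 member windows, those of Fos, Fosb, Junb and Atf3. TGACATCA was in 3.62% of all windows, and of the members only in that of Jun. TATAAA was in 8.32% of all windows and in 2 of the 7. The full TRE TGACTCA (5.20% of all windows), the full CRE TGACGTCA (1.79%) and the CArG box, the core of the serum response element (1.63%), were in 0 of the 7 member windows. Bases further than 250 before the start were not searched, so sites there could not have been found. A motif match describes these letters only and is not a measured binding site, and TGACATCA, TGACG and TATAAA were added to the search after the windows had been seen.

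How far the family stood from the bulk of genes depended little on the scaling for the members called higher. Both arrays were scaled to a common mean after trimming 2% at each end. Relative to the median of all genes, the log2 ratio of Fos ran from 2.10 to 2.34 over the reported setting and 8 alternatives, that of Jun from 1.06 to 1.30 and that of Junb from 1.03 to 1.27. On the same relative scale Fosl1 ran from -2.48 to -0.90 and Jund from -1.47 to 0.12. Fosb, whose wild-type signal was below the floor, had the widest range, from -0.28 to 1.60 over the 8 settings that measured it.

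The ratios as such did depend on it. With both arrays scaled to a common median, the median of all genes became -0.11, Jun and Junb were at 0.97 and 0.95 and were no longer called, and Fos was at 2.01. Poly-A controls are bacterial RNAs spiked into each sample, and 24 of 24 of their probe sets above the floor read lower in Slc39a13-KO, with a median log2 ratio of -1.02. Scaling on these controls put the median of all genes at 0.94, and 96.3% of called genes were higher in place of 57.4%. With median scaling that share was 38.3% and with quantile normalization 47.6%. Under poly-A control scaling Fos was at 3.28, Jun at 2.24, Junb at 2.21, Atf3 at 1.30 and Fosl2 at 1.19, all called higher, Fosl1 was at -1.05 and still called lower, and Jund was at -0.14, now the mean of 2 probe sets, and not called. Directions here are therefore relative to the bulk of genes. The sources used here do not give the amount of control RNA per sample.

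**Figure D3:**
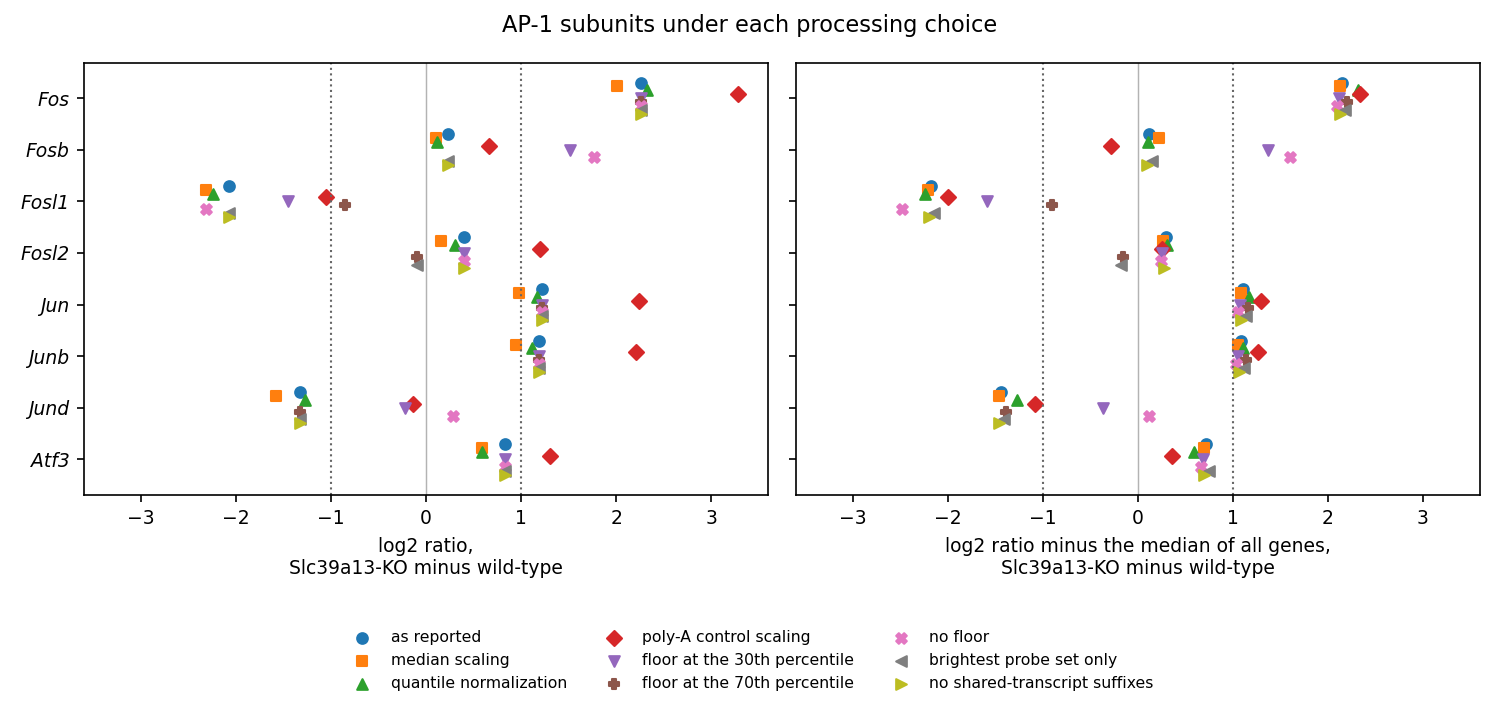
Log2 ratios of the 8 AP-1 subunits (left, Slc39a13-KO minus wild-type) and the same values minus the median of all genes (right) under the reported setting and 8 alternatives, each with its own marker, and dotted lines at 2-fold. On the right, the Fos, Jun and Junb markers gather closely, whereas Fosb, Jund and Fosl1 spread widely, upward from lowest values of -0.28, -1.47 and -2.48.

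The genes around AP-1 were counted in lists drawn up by function. Among 19 measured bZIP partners and relatives, 1 was called higher and 2 lower, with a median log2 ratio of -0.18, and with poly-A control scaling 7 were higher, 1 was lower and the median was 0.83. Under that scaling 45.8% of all measured genes were called higher and 1.75% lower, with a median of 0.94. The poly-A counts of every list below are to be read beside these shares. Maf, a large Maf protein with its own activation domain, was read by 6 probe sets and was at least 4.14-fold higher. Its brightest probe set had signals of 9302 in the Slc39a13-KO array and 1311 in the wild-type array. The small Maf protein Maff, which lacks an activation domain, was 7.85-fold lower, with 172 in the Slc39a13-KO array and 1350 in the wild-type array, and Mafk was 2.08-fold lower. Of partners not called, Atf2, which binds DNA with Jun, had a log2 ratio of 0.80, and Jdp2, a repressor that pairs with Jun, one of -0.04.

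Other immediate early genes differed in both directions, as the subunits did. Of 20 measured, 5 were called higher and 3 lower, with a median log2 ratio of 0.27, and with poly-A control scaling 13 were higher and 0 lower. Over all measured genes 45.8% were higher and 1.75% lower under that scaling. Klf2, a Krüppel-like factor, had signals of 2928 in the Slc39a13-KO array and 727 in the wild-type array, 4.02-fold higher. Egr1, the zinc finger factor that serum induces together with Fos, had 11775 in the Slc39a13-KO array and 3488 in the wild-type array, 3.38-fold higher. Ier2 was 2.52-fold and Zfp36, which promotes decay of cytokine mRNAs, 2.51-fold higher. Klf4 was 2.77-fold lower in the mean of its 2 probe sets, which had log2 ratios of -1.59 and -1.35, Ier5 at least 2.75-fold lower and Klf10, a TGF-β-induced factor, 2.33-fold lower.

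The kinases that phosphorylate or lie upstream of AP-1 were mostly close between the arrays. Of 16 measured, 1 was called higher and 1 lower, and the median log2 ratio was -0.13. With poly-A control scaling 5 kinases were higher, 0 lower and the median was 0.89, and with the floor at the 70th percentile 0 were called in either direction. Mapk8 (JNK1), which phosphorylates Jun, had a log2 ratio of -0.01, and Mapk9 (JNK2) one of -0.42. Map2k6, an activator of p38, was at least 3.69-fold higher, and Mapk11 (p38β) was 3.61-fold lower. The regulators of Fos transcription around SRF, a factor that binds the CArG box, had 0 of 6 called in either direction, against 3 higher with poly-A control scaling, with Srf at -0.60 and Elk1 at -0.22. Ubiquitin ligases and corepressors of AP-1 had 0 of 5 called, against 2 higher with poly-A control scaling, with the Jun ligases Fbxw7 at -0.27 and Itch at 0.52.

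Inhibitors that MAP kinase signaling induces against itself were lower or not called, with 5 of 16 lower, 0 higher and a median log2 ratio of -0.22. A floor at the 70th percentile left 3 lower and 0 higher, with a median of 0.12. With poly-A control scaling 2 were lower, 7 higher and the median was 0.95, where 45.8% of all measured genes were higher and their median was 0.94. Dusp4, a nuclear MAP kinase phosphatase, was below the floor in the Slc39a13-KO array and had a signal of 885 in the wild-type array, at least 10.4-fold lower. Spry1 had 192 in the Slc39a13-KO array and 1408 in the wild-type array, 7.32-fold lower. Spry4 was at least 2.96-fold and Dusp6, the ERK phosphatase, 2.81-fold lower. Dusp1, which is induced with the immediate early genes, was not called, with 6170 in the Slc39a13-KO array and 4187 in the wild-type array.

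Genes known as AP-1 targets had a median below that of all genes. Of 20 measured, 8 (40%) were called lower and 1 higher, with a median log2 ratio of -0.80 against 0.11 over all genes, and with poly-A control scaling 5 were lower, 4 higher and the median was 0.17 against 0.94. The chemokine Ccl2 was below the floor in the Slc39a13-KO array and had 2360 in the wild-type array, at least 27.7-fold lower. The cytokine Il6 was at least 14.0-fold lower. Vegfd, a lymphatic growth factor that Fos induces, was 10.8-fold lower with an SD of 0.12 between its 3 probe sets. Ptgs2, the inducible cyclooxygenase, was 5.44-fold lower, with log2 ratios of -3.50 and -1.39 in its 2 probe sets. Ezr (ezrin), which links actin to the membrane, was 3.86-fold higher. A further 7 listed targets were below the floor in both arrays, among them Mmp9 and Plau, proteases whose genes AP-1 activates in other cells.

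The TRE itself was searched in the windows of these targets, and it is shown for those called and for Mmp13, the collagenase of bone. Of 23 listed targets with a window 12 held TGACTCA on either strand. Counted by window, as for the 5.20% of all windows given above, this was 12 of 28 (42.9%), in a list drawn up from known AP-1 targets. Capitals mark the site, which reads TGAGTCA where it lies on the other strand (RefSeq, GRCm38.p6). The stretches lie at chr5:30012864-30012882 on the + strand (Il6), chr9:7445765-7445793 on the + strand (Mmp3), chr17:6782795-6782823 on the - strand (Ezr) and chr9:7272468-7272496 on the + strand (Mmp13).
Il6: cTGAGTCActtttaaagaa
Mmp3: ggaagcaattaTGAGTCAgttttcgggtg
Ezr: ccgatcgggcgTGACTCAtcttgggaccg
Mmp13: ccccaaagtggTGACTCAtcactatcatg

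These sites began 249, 46, 32 and 35 bases before the start in Il6, Mmp3, Ezr and Mmp13. Mmp3 (stromelysin) was below the floor in the Slc39a13-KO array and had 419 in the wild-type array, at least 4.92-fold lower. Mmp13 was not called, with 182 in the Slc39a13-KO array and 121 in the wild-type array. Of the 7 measured targets with a TRE in the window 2 were called lower and 1 higher, and of the 9 measured without one 5 were lower and 0 higher. The site in the window thus went with both directions, and the difference between the 2 sets was not tested.

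A list of stress genes, which holds heat shock genes beside genes that Atf3 and Atf4 act on, was mostly not called. Of its 13 measured genes 2 were lower and 0 higher, with a median log2 ratio of -0.19. With poly-A control scaling 0 were lower, 5 higher and the median was 0.83, where 45.8% of all measured genes were higher. Its counts are therefore not a reading of Atf3 and Atf4 targets alone. Cth, an enzyme of cysteine synthesis, was 2.38-fold and Ddit4, an inhibitor of mTOR signaling, 2.16-fold lower. The heat shock genes Hspa1a and Hspa1b, which cell dissociation and heat induce, had log2 ratios of 0.33 and 0.52 and were not called.

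**Figure D4:**
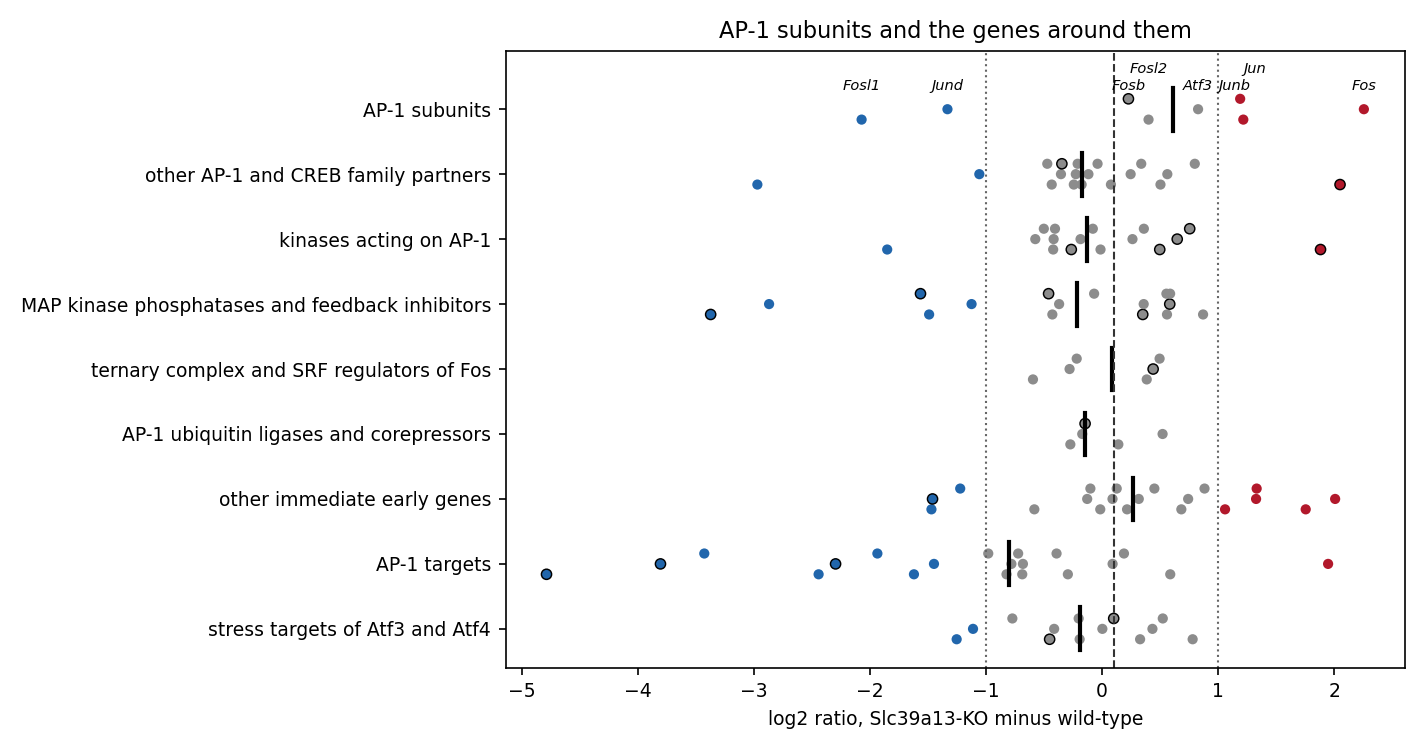
Log2 ratios (horizontal, Slc39a13-KO minus wild-type) of the measured genes of 9 lists. Red points are genes called higher, blue points genes called lower and grey points the rest, black outlines mark ratios that are bounds and black bars the list medians. Dotted lines mark 2-fold and the dashed line the median of all genes at 0.11; the AP-1 targets have their median at -0.80 with 8 of 20 called lower.

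Facts of the 2 arrays bear on all of these values. Of the osteoblast markers, Col1a1, Col1a2 and Sparc were bright in both arrays, Sp7 was dim (153 in the Slc39a13-KO array and 94.8 in the wild-type array), and Ibsp and Phex were below the floor in both. Alpl and Dmp1, above the floor only in the Slc39a13-KO array, were at least 2.31-fold and 4.49-fold higher, the 2 of 6 measured that were called, and with the floor at the 70th percentile 0 were. Markers of other cells moved beside the AP-1 genes. Chondrocyte markers were higher for 11 of 11 measured, led by Cnmd, Col9a1, Acan and Matn1 (at least 34.8-fold each), with summed signals of 147524 in the Slc39a13-KO array and 7334 in the wild-type array. Smooth muscle and pericyte markers were lower for 7 of 10, led by Actg2 (41.7-fold) and Mcam (at least 10.4-fold), with sums of 17078 in the Slc39a13-KO array and 46349 in the wild-type array, but 2 were lower and 1 higher with poly-A control scaling, and 3 were lower with the floor at the 70th percentile. Macrophage and osteoclast markers were higher for 6 of 10, led by Lyz2 (8.41-fold), and for 1 when the floor was the 70th percentile. The osteoclast genes Ctsk and Acp5 were not among those called. Ctsk had a log2 ratio of -0.52, and Acp5 had one of 0.07 against the floor. The list had sums of 6839 in the Slc39a13-KO array and 5262 in the wild-type array. Of these, Ctsk alone gave 2956 in the Slc39a13-KO array and 4227 in the wild-type array. In all sums given here a signal below the floor counts as the floor. Ptprc and Itgam were below the floor in both arrays. Adipocyte markers were higher for 2 of 4 (Pparg at least 10.2-fold, Fabp4 at least 6.27-fold). The other measured ones, Cebpa at -0.20 and Lpl at -0.39, were not called, and Adipoq was below the floor in both arrays. With the floor at the 70th percentile 1 adipocyte marker was higher, and 0 were when probe sets with shared-transcript suffixes were left out. Endothelial markers were lower for 1 of 3 (Flt1, at least 2.54-fold), and for 0 with poly-A control scaling. In bulk RNA a different mix of cells and a different RNA level per cell cannot be told apart, and the part of these other cells in the AP-1 values was not tested.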

How the data were processed

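Total RNA of primary osteoblasts was copied into complementary RNA with a biotin label, which was read on Affymetrix whole-genome mouse arrays. The deposited values are linear signal intensities, 1 per probe set and array, computed by the authors with MAS5 per the labels' processing notes (no version is given in the sources used here). The study's methods name gcRMA, but both arrays have a trimmed mean of 500.003, which is what MAS5 scaling leaves. MAS5 handles each array alone, so dim signals are noisy, and total mRNA per cell is lost in the scaling.

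Of 45101 probe sets (64 controls), 34945 had 1 gene symbol in the platform annotation and 34741 of these were matched by gene ID to RefSeq (GRCm38.p6). Signals were scaled to a common 2% trimmed mean, raised to the 50th percentile of pooled signals (85.3) and put on the log2 scale. A probe set was measured if above the floor in at least 1 array. A gene took the mean log2 ratio (Slc39a13-KO minus wild-type) over its measured probe sets. Calls needed a 2-fold mean and 1 sign in all measured probe sets. A ratio against the floor is a bound, given as at least N-fold.

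All members were named, and from each list of genes around AP-1 the called genes furthest in each direction, at most 4, with some markers of other cells and a few further genes chosen after their values were seen. The members and lists were chosen with earlier results of these data known. The number of arrays limits the precision. The calling code was tested on simulated data, which gives no error rate for these arrays. The alternatives changed the scaling, the floor or the choice of probe sets, 1 at a time. Python 3.11.15, pandas 2.3.3 and numpy 2.4.6 were used.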

Additional observations from a re-analysis of the deposited data

How the results depend on the processing

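Of the members, Fos was called higher and Fosl1 was below wild-type under all 8 alternatives, though Fosl1 was not called with the floor at the 70th percentile. Jund turned to 0.28 with no floor. With median scaling 1 member was called higher, and 653 genes in all. With poly-A control scaling 5 members were higher and 1 lower, with a member median of 1.25, and 5890 genes were higher and 225 lower. With the floor at the 30th percentile 4 members, Fosb added, were higher and 1 lower, the member median was 1.01, and 1595 genes were higher and 1017 lower. With it at the 70th percentile 1 member was lower, 507 genes were higher and 435 lower, and Fosb and Atf3 had no value. With no floor 4 members, Fosb again added, were higher and 1 lower, the member median was 1.01, 3077 genes were higher and 2049 lower, and the median SD between probe sets was 0.61, since dim probe sets then count. Quantile normalization, the brightest probe set alone and probe sets without shared-transcript suffixes left the member counts at 3 higher and 2 lower. Values were called moved if they shifted by more than 0.34, the median SD between probe sets. Fosb, Atf3 and the dim probe sets of Fosl1, Fosl2 and Jund lay at or near the floor, where little can be read. With 1 array per genotype no replicate could be left out and no paired analysis was possible because there were no replicates to pair.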
